A study of Mus musculus with 4 samples.

Results

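Ribosome biogenesis factors are the proteins that transcribe, modify, cut and assemble ribosomal RNA into ribosomal subunits. Ribosomes are built mainly in the nucleolus. There RNA polymerase I transcribes a long precursor rRNA, small nucleolar ribonucleoproteins (snoRNPs) modify it at chosen bases, and large assemblies of proteins cleave and fold it around the ribosomal proteins. The demand for this work is high in cells that grow and divide, and in the myeloid lineage it is a feature of precursors, whereas mature neutrophils have small nucleoli. A set of 42 genes was followed here, given by gene symbol for their known roles and with earlier results of these data known. All 42 were found among the 24346 genes of the deposited tables. By role, 4 were genes of RNA polymerase I, 4 nucleolar scaffold genes, 4 box C/D snoRNP genes and 4 box H/ACA snoRNP genes. The others were 12 genes of small-subunit assembly and 14 genes of large-subunit assembly.

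*In vitro* MDSCs are immature myeloid cells grown from bone marrow (BM) cells of C57BL/6J mice (females, per the study's methods) for 4 days with 40 ng/ml GM-CSF. RNA-seq compared 2 cultures that also received 5 ng/ml G-CSF (G-CSF) with 2 cultures that received none (Control), so that GM-CSF was present in both groups. The study's methods name no sorting of cell subsets for these libraries, and whether BM cells of several mice were pooled is not given in the sources used here. Values are FPKM, a read count scaled by transcript length and by the reads mapped in the library, as the authors deposited them. The step size of the lowest values gave an estimate of 12.45 to 15.7 M mapped reads per library, and each member held at least 72 estimated reads in each library. The label of the RNA extraction names liver tissue, but 4 of 6 hepatocyte markers (*Alb*, *Apoa1*, *Ttr* and *Fgb*) were listed at 0 in every library and the other 2 stood at most at 1.07 FPKM, while the pan-myeloid gene *Itgam* stood between 395 and 520 FPKM. A listed 0 need not mean that a gene was not expressed, since *Rpl26*, a ribosomal protein gene that every cell uses, was also listed at 0 in every library. Differences were tested with limma on log2(FPKM + 0.1) over 11914 genes, with Benjamini-Hochberg adjustment, and calls were made where the adjusted p fell under 0.05. A log2 fold change is G-CSF minus Control on that scale. A gene is said to rise or fall only where its change was called.

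Promoter sequences are shown for members that illustrate how the set differs in one known feature, the E-box CACGTG to which MYC and its partner MAX can bind. RefSeq promoters of 250 bases before to 50 bases after the start (GRCm38.p6) were found for 37 of the 42 members, and CACGTG, which reads alike on both strands, was in the window of 6 of them (16.2%). Counted by gene in the same way, it was in the windows of 8.1% of all 27025 genes with a listed promoter and of 12.3% of the 8413 genes with at least 1 FPKM in the mean. Counted by promoter, it was in 14.6% of the members' 41 promoters, in 7.2% of all 32851 and in 10.3% of the 10719 of genes with at least 1 FPKM. In *Nop2*, *Utp18* and *Rrn3* the motif lay upstream, with its first base 60, 20 and 48 bases before the start. *Rrn3* held a further CACGTG 215 bases before the start, outside the stretch shown. Their last 100 bases before the start are given 5′ to 3′ on the strand of the gene, beside those of *Ncl* and *Nop56*, which were among the members with the largest change. Of the members not shown, *Wdr43* holds CACGTG after the start and had a log2 fold change of 0.51. The sequences shown therefore do not compare motif and change. Capitals mark CACGTG and the GC box GGGCGG. Read from the other strand, the GC box appears as CCGCCC.
Nop2, chr6:125131783-125131882, plus strand: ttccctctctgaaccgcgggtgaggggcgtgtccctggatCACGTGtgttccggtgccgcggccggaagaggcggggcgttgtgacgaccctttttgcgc
Utp18, chr11:93885767-93885866, minus strand: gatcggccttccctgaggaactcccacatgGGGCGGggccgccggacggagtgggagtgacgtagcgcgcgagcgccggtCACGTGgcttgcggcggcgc
Rrn3, chr16:13780599-13780698, plus strand: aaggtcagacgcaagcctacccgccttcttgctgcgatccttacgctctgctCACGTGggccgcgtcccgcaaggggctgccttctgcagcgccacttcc
Ncl, chr1:86359456-86359555, minus strand: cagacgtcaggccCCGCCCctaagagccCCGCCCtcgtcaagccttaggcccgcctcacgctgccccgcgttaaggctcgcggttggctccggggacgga
Nop56, chr2:130274312-130274411, plus strand: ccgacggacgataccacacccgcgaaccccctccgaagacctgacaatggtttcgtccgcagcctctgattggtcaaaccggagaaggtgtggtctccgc

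Every member had a higher level with G-CSF, where 50.2% of all genes tested had a log2 fold change above 0. For each of the 42, the lower G-CSF value exceeded the higher Control value, an arrangement found in 33.7% of all genes tested, and the opposite arrangement was found in 32.6%. The change was called in 31 of the 42 (73.8%), always as a rise, where 12.7% of all genes tested were called higher and 11.5% lower. The median log2 fold change was 0.31, beside 0.001 over all genes tested, and the range was 0.096 to 0.68. The folds in mean FPKM ran from 1.07 to 1.60. In bulk RNA, a change in the number of cells of a type and a change in RNA per cell cannot be told apart. None of the 42 passed a log2 fold change of 1 as well, a rule that 0.512% of all genes passed as higher and 0.906% as lower. Because the groups overlapped for none of the 42, a fit that dropped 1 library could not reverse a direction, and only the size could change. The members' median log2 fold change was 0.33 without Control replicate 1 and 0.36 without Control replicate 2. It was 0.36 without G-CSF replicate 1 and 0.32 without G-CSF replicate 2. When limma used a single prior spread for genes of all levels in place of one that follows the level, 4 members were called (*Npm1*, *Ncl*, *Nop56* and *Dkc1*), with 36 of 42 at an unadjusted p under 0.05, beside 201 calls and 4177 genes at an unadjusted p under 0.05 among all 11914.

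**Figure D1:**
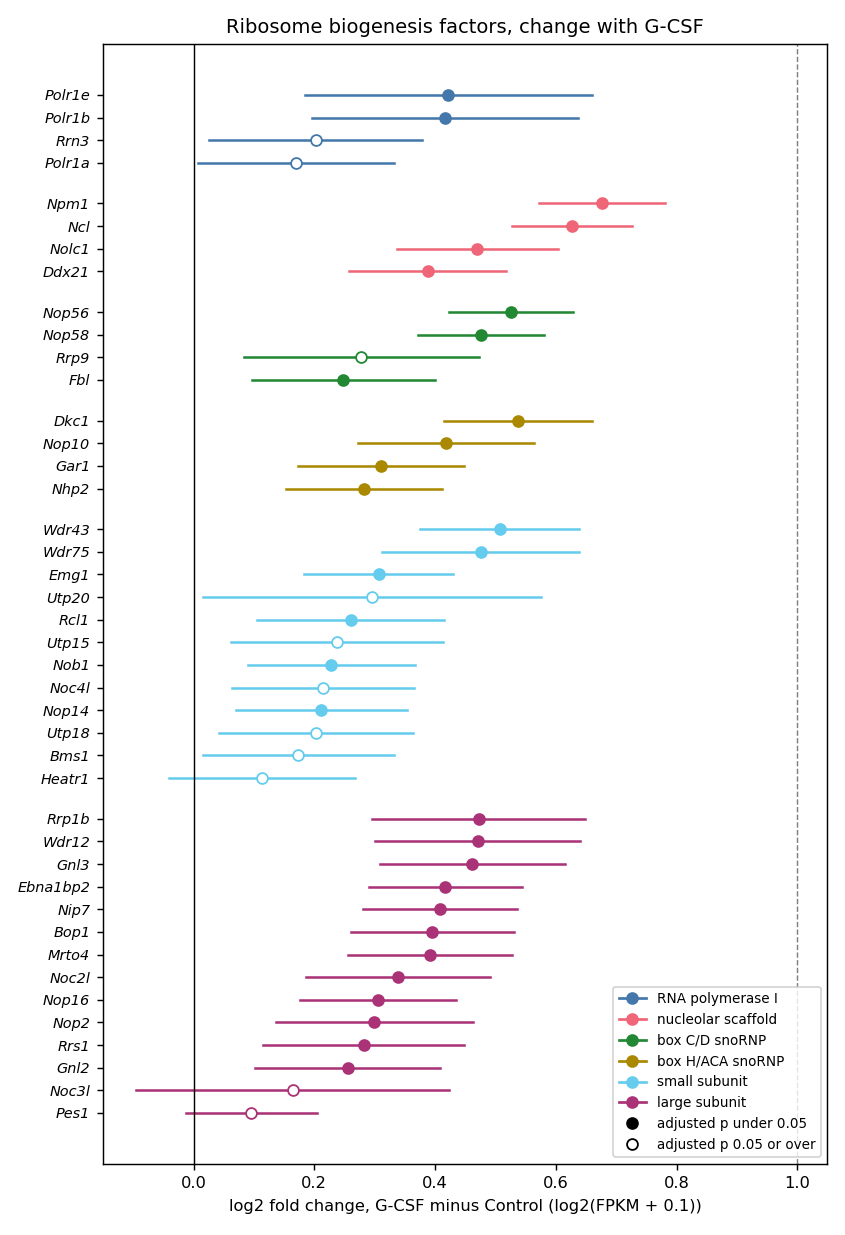
Log2 fold change of each member (x axis, G-CSF minus Control on log2(FPKM + 0.1)), grouped by role. Points are limma estimates and lines are 95% confidence intervals, filled points have an adjusted p under 0.05, and the dashed line marks a log2 fold change of 1, which none of the 42 genes reached.

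The nucleolar scaffold genes had the highest median change of the 6 roles (0.55), and all 4 rose. *Npm1* encodes nucleophosmin, a histone and ribosomal protein chaperone of the outer nucleolus, and lies on chromosome 11 of GRCm38 (33152287 to 33163206). It stood at 438 and 447 FPKM in Control and at 704 and 710 FPKM with G-CSF. Its groups lay far apart against the spread within each, and it rose by 0.68 on the log2 scale (SE 0.043, adjusted p = 0.00107). Of its 75-base transcript windows, 18.1% also occur in 7 annotated pseudogenes, so some of its reads are uncertain. *Ncl*, which encodes nucleolin, an RNA-binding protein of the precursor rRNA, stood at 73.9 and 74.2 FPKM in Control and 114 and 115 FPKM with G-CSF. The log2 fold change was 0.63 (SE 0.041, adjusted p = 0.00112), and 0.7% of its windows are shared. *Nolc1*, whose product Nopp140 accompanies snoRNPs, stood at 42.1 and 43.6 FPKM in Control and 57.2 and 61.8 FPKM with G-CSF. It rose by 0.47 on the log2 scale (SE 0.056, adjusted p = 0.00495). *Ddx21*, an RNA helicase that acts on rRNA transcription and processing, stood at 41.2 and 43.2 FPKM in Control and 53.6 and 57.0 FPKM with G-CSF, and rose by 0.39 (SE 0.054, adjusted p = 0.00673).

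*Npm1* alone held 24.2% and 24.5% of the members' summed FPKM in Control against 29.1% and 28.3% with G-CSF. The sum over all 42 members was 1808 and 1827 FPKM in Control and 2423 and 2510 FPKM with G-CSF, a ratio of means of 1.36. Without *Npm1* the ratio was 1.28. As a share of all FPKM of a library, the members made up 0.270% and 0.285% in Control against 0.377% and 0.389% with G-CSF.

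**Figure D2:**
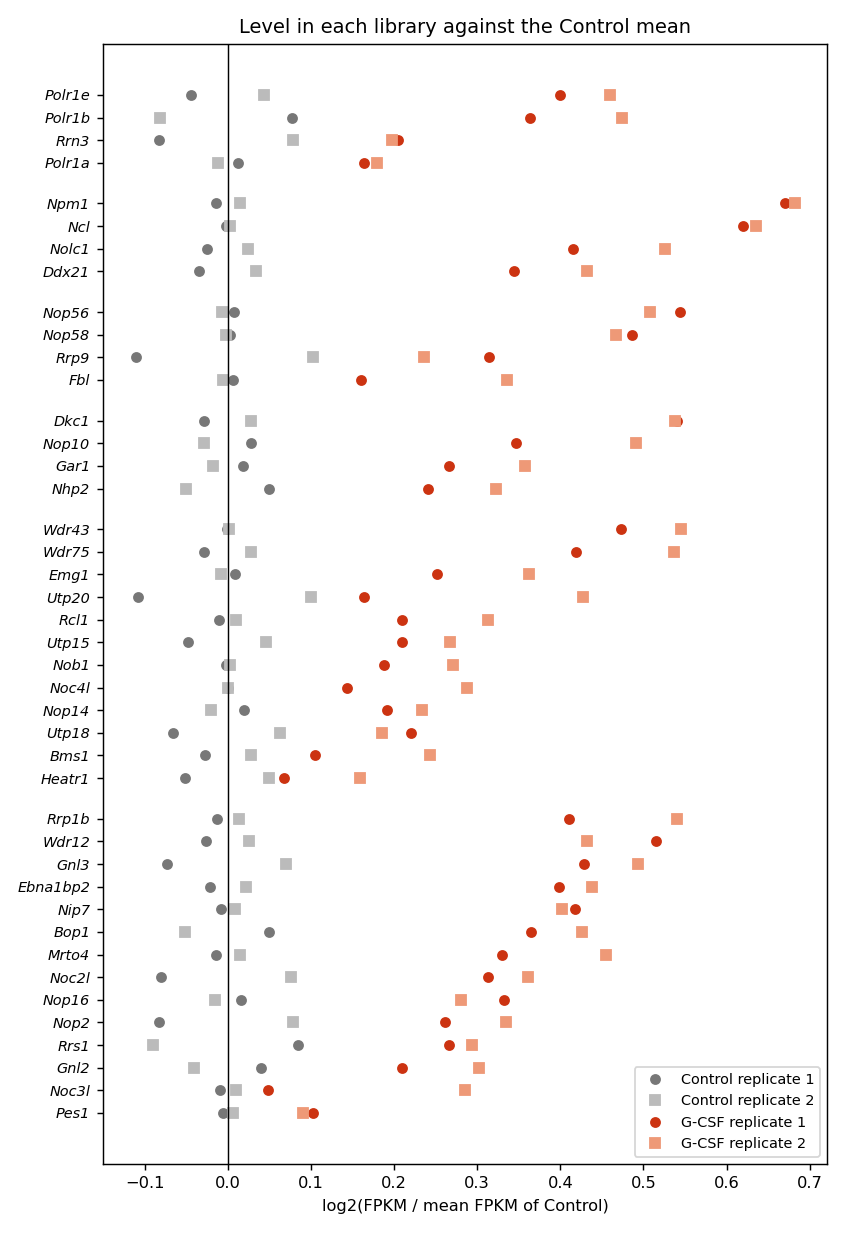
Level of each member in each of the 4 libraries, as log2 of its FPKM over the mean FPKM of the 2 Control libraries (x axis), with circles for replicate 1 and squares for replicate 2. In every row both G-CSF points lie to the right of both Control points, and the distance is largest for *Npm1* and *Ncl*.

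Box C/D snoRNPs place methyl groups on the ribose of rRNA, guided by a small nucleolar RNA. In this role 3 of 4 genes were called higher, and all 4 estimates were above 0. *Nop56* and *Nop58* encode the paired core proteins that hold the guide RNA. *Nop56* stood at 72.9 and 72.1 FPKM in Control and 106 and 103 FPKM with G-CSF, a rise of 0.53 on the log2 scale (SE 0.043, adjusted p = 0.00209), with 14.4% of its windows shared with 6 other annotated genes. *Nop58* stood at 53.0 and 52.8 FPKM in Control and 74.1 and 73.1 FPKM with G-CSF, a rise of 0.48 (SE 0.043, adjusted p = 0.00275). *Fbl* encodes fibrillarin, the methyltransferase of the same particle, and had the highest level of the role. It stood at 128 and 126 FPKM in Control and 142 and 160 FPKM with G-CSF. Its G-CSF libraries differed more from each other than its Control libraries, and its log2 fold change was 0.25 (SE 0.063, adjusted p = 0.0336). This call was lost without Control replicate 1, Control replicate 2 or G-CSF replicate 2, and 17.0% of its windows are shared with 2 pseudogenes. The level of *Nop56* relative to *Fbl* was 0.571 in both Control libraries and 0.745 and 0.643 with G-CSF, a difference that was not tested. *Rrp9*, a protein of the snoRNP that guides early cleavage of the precursor, stood at 22.5 and 26.0 FPKM in Control and 30.1 and 28.5 FPKM with G-CSF, and did not pass (0.28, SE 0.081, adjusted p = 0.0503).

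Box H/ACA snoRNPs convert chosen uridines of rRNA into pseudouridine, and all 4 of their core genes rose. *Dkc1* encodes dyskerin, the pseudouridine synthase, which also belongs to telomerase. It stood at 26.0 and 27.1 FPKM in Control and 38.6 and 38.6 FPKM with G-CSF, a rise of 0.54 on the log2 scale (SE 0.051, adjusted p = 0.00304). Its partners had smaller estimates, and the differences between them were not tested. *Nhp2*, the most abundant of the 4, stood at 113 and 105 FPKM in Control and 129 and 137 FPKM with G-CSF, and rose by 0.28 (SE 0.054, adjusted p = 0.0146), a call lost without Control replicate 2. *Gar1*, the least abundant, stood at 25.7 and 25.1 FPKM in Control and 30.5 and 32.5 FPKM with G-CSF, and rose by 0.31 (SE 0.057, adjusted p = 0.0137). *Nop10* rose from 54.8 ± 1.53 to 73.4 ± 5.18 FPKM (SD, n = 2 each), by 0.42 (SE 0.061, adjusted p = 0.00719 from limma). The level of *Dkc1* relative to *Nhp2* was 0.230 and 0.257 in Control against 0.299 and 0.282 with G-CSF.

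RNA polymerase I transcribes the precursor rRNA. Here 2 of 4 genes were called higher, both at low levels, and all 4 estimates were above 0. *Polr1e*, which encodes a subunit that aids initiation and elongation, had the lowest level of the 42 members. It stood at 4.27 and 4.54 FPKM in Control and 5.81 and 6.05 FPKM with G-CSF, a rise of 0.42 (SE 0.099, adjusted p = 0.0268). It rests on few reads, and its call was lost in each of the 4 fits that left a library out. *Polr1b*, the gene of the second largest subunit, rose from 7.87 ± 0.614 to 10.5 ± 0.574 FPKM (SD, n = 2 each), by 0.42 (SE 0.092, adjusted p = 0.0226 from limma), a call lost without Control replicate 2 or G-CSF replicate 2. *Polr1a*, the gene of the largest catalytic subunit, did not pass (log2 fold change 0.17, SE 0.068, adjusted p = 0.113). *Rrn3*, the factor that recruits the polymerase to the rRNA genes and the most abundant of this role, stood at 15.4 and 17.3 FPKM in Control and 18.9 and 18.8 FPKM with G-CSF. Its groups did not overlap, but the gap between them was smaller than the distance between the Control libraries, and it did not pass (0.20, SE 0.073, adjusted p = 0.0905).

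All 12 genes of small-subunit assembly had estimates above 0, and 6 were called higher. The median change was the lowest of the 6 roles (0.23). *Wdr43* and *Wdr75* encode components of the complex that first binds the growing precursor. *Wdr43* stood at 22.9 FPKM in both Control libraries and at 31.8 and 33.4 FPKM with G-CSF, a rise of 0.51 (SE 0.055, adjusted p = 0.00401). *Wdr75* stood at 15.1 and 15.7 FPKM in Control and 20.6 and 22.4 FPKM with G-CSF, a rise of 0.48 (SE 0.068, adjusted p = 0.00702). Other genes of the same early complex had smaller estimates that did not pass, namely *Utp15* (0.24, adjusted p = 0.0586) and *Heatr1* (0.11, adjusted p = 0.239). *Emg1*, an rRNA methyltransferase and the most abundant gene of this role, stood at 83.5 and 82.6 FPKM in Control and 98.9 and 107 FPKM with G-CSF, a rise of 0.31 (SE 0.051, adjusted p = 0.0106). Exons of the oppositely oriented *Lpcat3* overlap 7.2% of its exon bases. *Rcl1* (0.26), *Nob1*, the nuclease that trims the end of the small-subunit rRNA (0.23), and *Nop14* (0.21) had adjusted p-values of 0.0315, 0.0327 and 0.0444. The calls of *Nob1* and *Nop14* were lost in each fit that left a library out, and that of *Rcl1* in all but the fit without G-CSF replicate 1. *Utp20*, the least abundant, stood at 8.56 and 9.90 FPKM in Control and 10.3 and 12.4 FPKM with G-CSF, and did not pass (0.30, SE 0.117, adjusted p = 0.111). *Noc4l* (0.21, adjusted p = 0.0514), *Utp18* (0.20, adjusted p = 0.0699) and the GTPase gene *Bms1* (0.17, adjusted p = 0.102) did not pass either.

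All 14 genes of large-subunit assembly had estimates above 0, with a median change of 0.365, and 12 were called higher. *Rrp1b* stood at 11.6 and 11.8 FPKM in Control and 15.6 and 17.0 FPKM with G-CSF, the largest estimate of this role (0.47, SE 0.073, adjusted p = 0.00849). *Bop1*, *Pes1* and *Wdr12* encode the 3 proteins of the PeBoW complex, which is required for maturation of the large subunit. *Wdr12* stood at 10.7 and 11.1 FPKM in Control and 15.6 and 14.8 FPKM with G-CSF, a rise of 0.47 (SE 0.071, adjusted p = 0.00785). *Bop1* stood at 37.7 and 35.1 FPKM in Control and 46.9 and 48.9 FPKM with G-CSF, a rise of 0.40 (SE 0.057, adjusted p = 0.00701). *Pes1*, like *Bop1* singled out after its values were seen, stood at 47.9 and 48.3 FPKM in Control and 51.7 and 51.2 FPKM with G-CSF. Its estimate was the smallest of all members and did not pass (0.096, 95% confidence interval -0.012 to 0.20, adjusted p = 0.165), and 10.4% of its windows are shared with 2 pseudogenes. The level of *Bop1* relative to *Pes1* was 0.787 and 0.727 in Control against 0.908 and 0.956 with G-CSF, and that of *Wdr12* was 0.224 and 0.230 in Control against 0.303 and 0.288 with G-CSF. The groups did not overlap in either ratio, an arrangement for which a two-sided exact permutation test gives p = 0.333, the smallest that 2 libraries against 2 allow. No other test of these ratios was run.

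The other genes of this role lay between these. *Gnl3*, which encodes the GTPase nucleostemin, known from stem and dividing cells, rose from 32.1 ± 2.23 to 44.2 ± 1.39 FPKM (SD, n = 2 each), by 0.46 (SE 0.064, adjusted p = 0.00639 from limma). *Ebna1bp2*, *Nip7*, *Mrto4* and *Noc2l* rose by 0.42, 0.41, 0.39 and 0.34, with adjusted p-values of 0.00528, 0.00559, 0.00721 and 0.0143. *Mrto4* was the most abundant of the role, at 44.7 and 45.6 FPKM in Control and 56.7 and 61.9 FPKM with G-CSF, and 6.0% of its windows occur in 2 pseudogenes. Exons of *Samd11* on the other strand overlap 20.9% of the exon bases of *Noc2l*, and whether the counting used strand is not given in the sources used here. *Nop16* (0.31), the rRNA methyltransferase gene *Nop2* (0.30), *Rrs1* (0.28) and *Gnl2* (0.26) had adjusted p-values of 0.012, 0.0245, 0.0309 and 0.0323. Of these, *Nop16* was called in every fit that left a library out and *Gnl2* in none, *Nop2* was lost without Control replicate 1 or G-CSF replicate 2, and *Rrs1* kept its call only without Control replicate 1. *Noc3l*, the least abundant of the role, stood at 5.98 and 6.06 FPKM in Control and 6.22 and 7.33 FPKM with G-CSF, and did not pass (0.16, SE 0.108, adjusted p = 0.306).

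The members spanned a range of levels from 5.17 FPKM (*Polr1e*) to 575 FPKM (*Npm1*) in the mean of the 4 libraries, with a median of 28.1 FPKM beside 12.1 FPKM over all genes tested. The order of change was not the order of level. *Fbl* and *Nhp2*, with ranks 2 and 3 in level, had ranks 31 and 26 of 42 in log2 fold change, while *Rrp1b* and *Wdr12*, with ranks 35 and 36 in level, had ranks 8 and 9. The G-CSF replicates were not equal either: in 32 of 42 members, G-CSF replicate 2 stood above replicate 1, and in 28 of 42, Control replicate 2 stood above replicate 1.

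**Figure D3:**
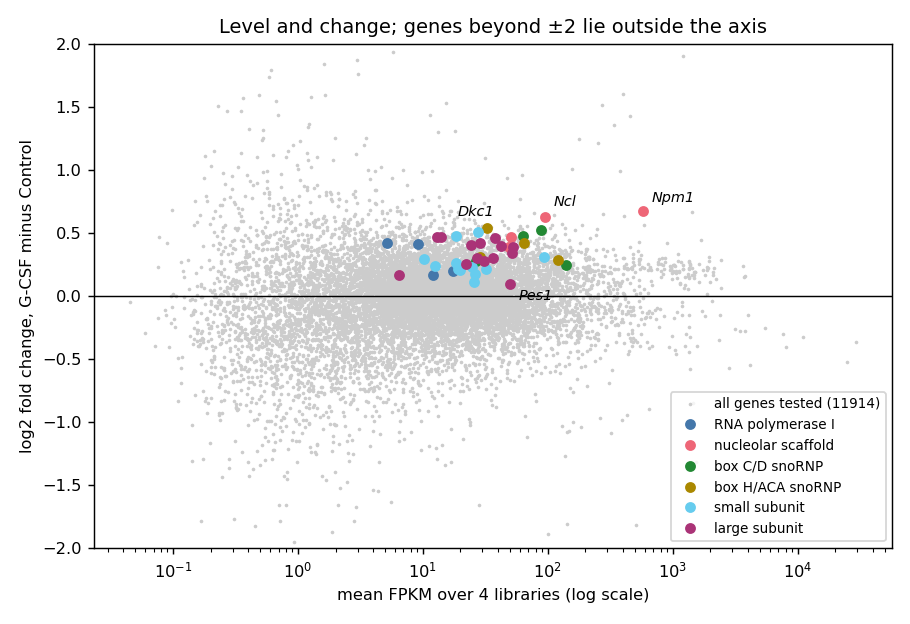
Mean FPKM over the 4 libraries (x axis, log scale) against log2 fold change (y axis, G-CSF minus Control) for all 11914 genes tested in grey and for the 42 members in the colour of their role, with 15 genes outside the y axis. The members lie above 0 across their whole range of levels, from *Polr1e* at 5.17 FPKM to *Npm1* at 575 FPKM.

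Some members carry genes of small nucleolar RNAs in their introns, so that one transcript supplies both a biogenesis protein and guide RNAs. In the GENCODE M21 annotation (GRCm38), 6 of the 42 members (*Ncl*, *Nop56*, *Nop58*, *Dkc1*, *Wdr43* and *Gnl3*) enclose 19 snoRNA genes on their own strand, a feature of 1.19% of the protein-coding genes of the tables. All 6 rose, by 0.46 to 0.63 on the log2 scale (median 0.52). The other 36 members all had estimates above 0, with a median of 0.30 and *Npm1* as the highest, and 25 were called higher. This grouping was described after the values of the members were known, and the difference between both groups was not tested. Among the other genes tested that enclose a snoRNA gene, 64 of 187 (34.2%) were called higher and 5 lower, with a median of 0.14. Each of the 6 members with CACGTG in the promoter window had an estimate above 0 (median 0.25). The change was called in 2 of them (*Wdr43* and *Nop2*), and *Rrn3*, *Utp18*, *Utp20* and *Pes1* did not pass. The 31 with a listed promoter and no CACGTG in it all had estimates above 0 (median 0.39), and 24 were called higher. The difference by motif was not tested. The other letters searched were CACGCG (10 of 37 members, 27.0%, beside 20.3% of the genes with at least 1 FPKM), GGGCGG (27 of 37, 73.0%, beside 69.2%) and TATAAA (2 of 37, 5.4%, beside 8.3%), each on both strands.

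Other genes of the pathway, not among the members, shifted the same way. They were listed from general knowledge, also with earlier results of these data known. Of the 124 such genes in the tables, all were tested, 61 (49.2%) rose and 0 were called lower (limma, with 83 at an unadjusted p under 0.05, in either direction), beside 12.7% and 11.5% of all genes, of which 4652 of 11914 were at an unadjusted p under 0.05. Their median log2 fold change was 0.22 and 117 of 124 estimates were above 0. Both G-CSF values exceeded both Control values in 101 of the 124 (81.5%), beside 33.7% of all genes tested. The reverse held for 1. The smallest p-values belonged to *Ruvbl2*, a helicase of snoRNP assembly (0.54, SE 0.059, adjusted p = 0.00402), the rRNA methyltransferase gene *Ftsj3* (0.40, SE 0.051, adjusted p = 0.0054), the helicase gene *Ddx18* (0.42, SE 0.055, adjusted p = 0.00559) and *Rsl1d1* (0.43, SE 0.057, adjusted p = 0.0056). Leaving out 1 library reduced the count to 29 and 36 without Control replicates 1 and 2, and to 39 and 28 without G-CSF replicates 1 and 2, and no gene of this list was called when limma used a single prior spread (70 at an unadjusted p under 0.05).

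The proteins that these factors assemble, the cytosolic ribosomal proteins, were also higher. Of 78 genes, 77 were tested, 51 (66.2%) rose and 0 were called lower (limma, with 68 at an unadjusted p under 0.05 in either direction), beside the same shares of all genes, with a median log2 fold change of 0.21, and *Rpl26*, listed at 0, was not tested. Their summed level was 84200 and 80914 FPKM in Control and 95432 and 93945 FPKM with G-CSF. *Rpl3* (0.30, SE 0.049, adjusted p = 0.00974), *Rpl14* (0.29, SE 0.049, adjusted p = 0.0108), *Rpl6* (0.31, SE 0.052, adjusted p = 0.0112) and *Rpl27* (0.28, SE 0.047, adjusted p = 0.0112) had the smallest p-values. The count depended on single libraries, with 35 and 12 genes called without Control replicates 1 and 2, and 6 and 13 without G-CSF replicates 1 and 2. No ribosomal protein gene was called with a single prior spread (54 at an unadjusted p under 0.05). The estimate was above 0 for 76 of 77 genes in the fit of all libraries. Both G-CSF values exceeded both Control values in 73 of the 77 (94.8%), beside 33.7% of all genes tested, and the reverse held for 0.

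**Figure D4:**
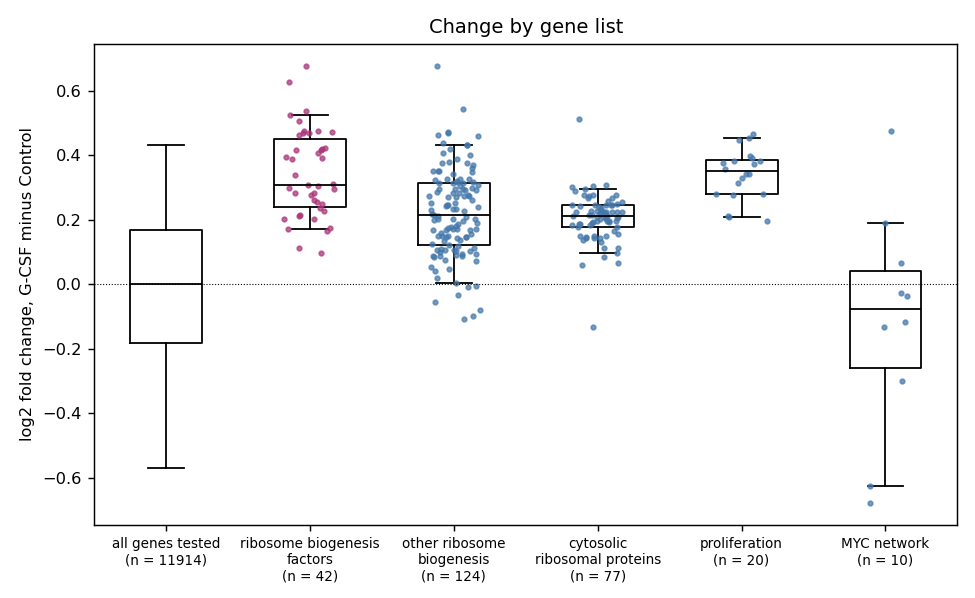
Log2 fold change (y axis, G-CSF minus Control) of the genes of each list, with boxes from the lower to the upper quartile, a line at the median and whiskers from the 5th to the 95th percentile, and a point for each gene except for all genes tested. The median of the 42 members is 0.31, that of the other ribosome biogenesis genes 0.22 and that of the ribosomal proteins 0.21, beside 0.001 for all genes tested.

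MYC is a transcription factor known to activate many genes of ribosome biogenesis, and MAX and MXD proteins are its partner and its antagonists. Of 10 genes of this network that were tested, 2 were called higher and 1 lower, with a median log2 fold change of -0.08. These counts are near the shares of all genes tested, 12.7% higher and 11.5% lower. No gene of this network was called when limma used a single prior spread (3 at an unadjusted p under 0.05). *Myc* stood at 54.7 and 52.3 FPKM in Control and 79.1 and 70.1 FPKM with G-CSF, a rise of 0.48 (SE 0.067, adjusted p = 0.00677). *Mxd1* fell by 0.62 on the log2 scale (SE 0.069, adjusted p = 0.00426), from 97.1 and 86.1 FPKM to 57.2 and 61.3 FPKM. *Mlx* rose by 0.19 (SE 0.048, adjusted p = 0.0331). *Max* stood at 51.9 and 50.7 FPKM in Control and 46.1 and 48.5 FPKM with G-CSF and did not pass (-0.12, adjusted p = 0.138). *Mycn*, between 0 and 0.125 FPKM, was too low to be tested.

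Genes that mark dividing cells and the cell types of the culture differed between the groups as well, and their part in the rise of the members was not tested. Their calls stand beside 12.7% of all genes tested called higher and 11.5% called lower. With a single prior spread, 0 of 20 proliferation genes, 4 of 6 neutrophil precursor markers and 1 of 11 neutrophil markers were called. No macrophage, dendritic cell, mast cell and basophil or eosinophil marker was called then. Of 20 proliferation genes, 18 rose (median 0.35), and their summed level was 1450 and 1444 FPKM in Control and 1841 and 1783 FPKM with G-CSF. As for the members, both G-CSF values exceeded both Control values in all 20, beside 33.7% of all genes tested. Of 6 markers of neutrophil precursors, 5 rose, among them *Mpo* (1.52) and *Prtn3* (1.42), and their sum went from 1031 and 892 FPKM in Control to 2306 and 2167 FPKM with G-CSF. Of 11 neutrophil markers, 9 fell, among them *Camp* (-1.81) and *Ltf* (-1.32), and their sum was 80540 and 70080 FPKM in Control and 53726 and 54057 FPKM with G-CSF. The sums of the other cell type lists were lower with G-CSF for dendritic cells (3224 and 2760 against 1804 and 1450 FPKM, 5 of 9 genes tested called lower), macrophages (524 and 540 against 431 and 446 FPKM, 5 of 7), mast cells and basophils (129 and 130 against 81.4 and 90.0 FPKM, 4 of 6) and eosinophils (261 and 339 against 208 and 162 FPKM, 2 of 3). Monocyte markers summed to 1478 and 1528 FPKM in Control and 1358 and 1425 FPKM with G-CSF, with 1 of 7 genes called higher and 1 called lower. Of 4 pan-myeloid genes 3 fell, and of 6 progenitor markers 1 was called higher and 1 lower. The progenitor sum was 28.9 and 26.9 FPKM in Control against 35.9 and 33.9 FPKM with G-CSF, although 4 of the 6 estimates were below 0 (median -0.22). Stromal markers summed to 21.3 and 20.2 FPKM in Control against 25.0 and 24.3 FPKM with G-CSF. Of the 2 stromal genes tested, 1 was called higher and 1 lower. Markers of T cells, B cells and erythroid cells summed to at most 5.51 FPKM per list in any library, and of those tested 2 of 3 T cell genes and 1 of 3 B cell genes were called lower.

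**Figure D5:**
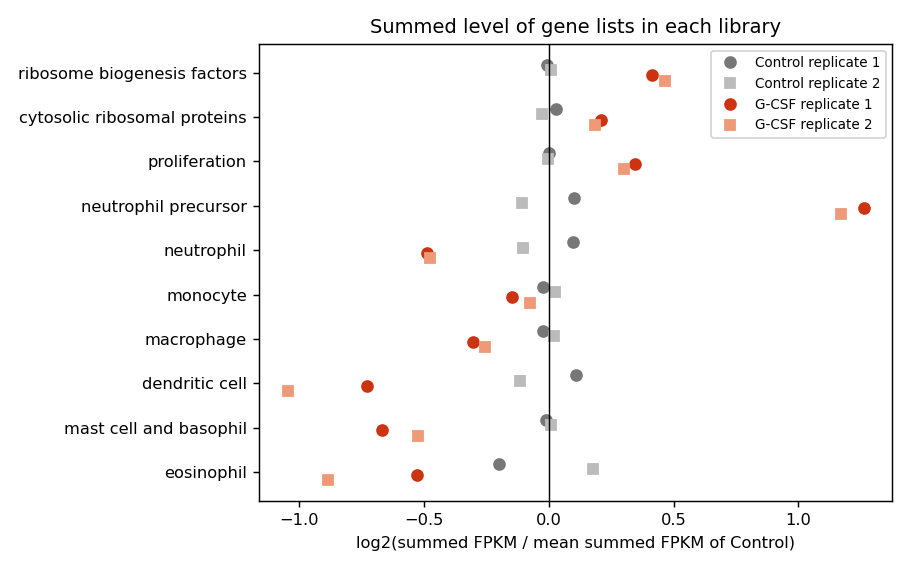
Summed FPKM of each gene list in each library, as log2 of its ratio to the mean of the 2 Control libraries (x axis), with circles for replicate 1 and squares for replicate 2. The sums of the members, ribosomal proteins, proliferation genes and neutrophil precursor markers lie higher in both G-CSF libraries, and those of the other cell type lists shown lie lower.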

How the data were processed

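Total RNA of 4 *in vitro* MDSC cultures was sequenced from stranded mRNA libraries with single reads of 75 bases. The authors deposited 1 table of FPKM values per library. The submitters' processing notes name TopHat2 2.0.13, Bowtie2 2.2.3, SAMtools 0.1.19, Cufflinks 2.2.1 and the build mm10. FPKM is already scaled by sequencing depth and gene length, which makes a change relative to the other transcripts of a library, and counts were not used.

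The analysis used GENCODE M21 (GRCm38, the same assembly as mm10) for lengths, positions and shared 75-base windows. A length was found for 23952 of 24346 names, 642 of them through RefSeq synonyms. Reads were estimated from the steps of low values in transcripts of 600 to 4000 bases shortened by 210 bases, in which 65.3% to 70.7% of values lay within 0.05 of a whole read, and they cover counting precision only. The test covered genes that had a transcript over 200 bases, 15 or more estimated reads in all and 10 or more in each of 2 libraries (limma 3.58.1 in R 4.3.3, lmFit and eBayes with trend, two-sided, pseudocount 0.1 FPKM, no rescaling, no block). The samples are 2 biological replicates per group from the samples' labels and the study's methods. The members and lists were chosen with earlier results of these data known. Values of every library are given for members called with the 10 largest changes, for the highest and lowest level of each role, and for *Bop1* and *Pes1*, chosen after their values were seen. From the other pathway lists at most 4 genes, those with the smallest p, are named, besides *Myc*, *Mycn* and *Max*. Alternatives were 2 other scalings, 2 other pseudocounts, 2 other filters, the replicate block, each library left out, no trend, voom on estimated reads and, added after the values were seen, no trend with a stricter filter. Python 3.11.15, numpy 2.4.6 and pandas 2.3.3 were used.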

Additional observations from a re-analysis of the deposited data

How the results depend on the processing

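Since the groups of every member do not overlap, only the 2 other scalings and voom could have changed a sign. Under these, all 42 members kept a log2 fold change above 0. Over all 14 alternatives the median of the members ranged from 0.30 to 0.36, and the filters, the block and the fits without trend leave it unchanged. The number of members called was 31 or 30 with other scalings, pseudocounts or a mean of at least 1 FPKM, 22 without a filter, 22 to 27 with a library left out and 39 with voom on estimated reads. In the fits with a library left out, the lone library of a group is assumed to vary like the other group. Without the trend, 4 members were called, and 12 without the trend at a mean of at least 1 FPKM, a setting added after the values were seen. The cause was not tested beyond this. For all genes, 2882 calls became 1626 without a filter, 201 without the trend, 565 without it at a mean of at least 1 FPKM, and 1587 to 1959 with a library left out. For the other ribosome biogenesis genes, 61 calls became 40, 0 (limma, 70 at an unadjusted p under 0.05), 6, and 28 to 39. For ribosomal proteins, 51 became 14, 0 and 0 (54 and 57 at an unadjusted p under 0.05), and 6 to 35. Libraries with the same replicate number share only a number in the labels (r = 0.263 between their deviations, across 11914 genes, which are not independent). With the replicate number as a block, 37 members, 72 other ribosome biogenesis genes, 65 ribosomal protein genes and 3995 genes in all were called. With 2 libraries a group and single-end reads of 12.45 to 15.7 M, changes of the size of *Pes1* or *Heatr1* could not be separated from no change.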
